A study of Mus musculus with 56 samples.

Results

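The Cyp4a genes encode cytochrome P450 enzymes of the endoplasmic reticulum that add a hydroxyl group to the terminal (omega) carbon of fatty acids. Among the 21935 genes of the count table, 6 rows carried the symbols Cyp4a10, Cyp4a12a, Cyp4a12b, Cyp4a14, Cyp4a31 and Cyp4a32, and these 6 genes are described here. They were chosen by their measured levels across the 7 treatment groups of the same mice, so their levels and differences are given as a description, without a test. In the low-dose combination of zalfermin and semaglutide, Cyp4a14 and Cyp4a10 lay above, and Cyp4a12a and Cyp4a12b lay below, every vehicle-dosed mouse with diet-induced steatohepatitis. Cyp4a32 and Cyp4a31 were low in every group.

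Omega-hydroxylation is the first step of a route by which long-chain fatty acids become dicarboxylic acids, through alcohol and aldehyde intermediates, which peroxisomes then shorten by beta-oxidation. Cyp4a10 and Cyp4a14 are classical target genes of the nuclear receptor PPARα in mouse liver and are induced by fasting and by fibrate drugs. Cyp4a12a is the main arachidonic acid omega-hydroxylase of the male mouse and depends on androgen, and its expression in liver is higher in males than in females.

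The 6 genes lie within one stretch of chromosome 4 of the GRCm38 build, as placed by the GENCODE annotation. Cyp4a12a spans chr4:115299046-115332815, Cyp4a12b chr4:115411624-115439034, Cyp4a10 chr4:115518264-115533649, Cyp4a31 chr4:115563649-115579015 and Cyp4a32 chr4:115600969-115621602, each on the forward strand, and Cyp4a14 spans chr4:115486200-115496142 on the reverse strand. They fall into near-identical copies. Over the aligned coding sequence, Cyp4a12a and Cyp4a12b were 98.5% identical, with 23 base differences, Cyp4a10 was 97.2% identical to Cyp4a32 and 96.6% to Cyp4a31, and Cyp4a31 and Cyp4a32 were 96.0% identical. Cyp4a14 was 75% to 76.0% identical to the other 5. A stretch of 75 coding bases from exon 6 of each gene, shown because a sequencing run of 75 cycles gives reads of at most that length, makes the copies visible. Capitals mark bases that differ from Cyp4a10.

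Cyp4a10: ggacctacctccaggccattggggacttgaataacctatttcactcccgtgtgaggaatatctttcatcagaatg
Cyp4a32: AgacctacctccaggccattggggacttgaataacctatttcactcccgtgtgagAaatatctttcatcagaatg
Cyp4a31: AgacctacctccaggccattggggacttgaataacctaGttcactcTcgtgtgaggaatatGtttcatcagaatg
Cyp4a12a: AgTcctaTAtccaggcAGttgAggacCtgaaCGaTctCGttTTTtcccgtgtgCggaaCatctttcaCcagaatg
Cyp4a12b: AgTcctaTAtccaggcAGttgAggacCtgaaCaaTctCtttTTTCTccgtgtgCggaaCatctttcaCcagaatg
Cyp4a14: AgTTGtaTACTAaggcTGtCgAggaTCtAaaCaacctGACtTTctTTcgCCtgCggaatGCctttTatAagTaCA

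In this window Cyp4a32 differed from Cyp4a10 at 2 bases and Cyp4a31 at 4, whereas Cyp4a12a and Cyp4a12b each differed at 19 and Cyp4a14 at 34. Cyp4a12a and Cyp4a12b differed from each other at 4. The windows were read from chr4:115524733-115524807 (Cyp4a10), chr4:115610461-115610535 (Cyp4a32), chr4:115570194-115570268 (Cyp4a31), chr4:115326636-115326710 (Cyp4a12a), chr4:115432889-115432963 (Cyp4a12b) and, on the reverse strand, chr4:115492153-115492227 (Cyp4a14).

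The likeness bears on how well reads of one gene can be told from those of another. Of all 75-base stretches in the transcript of Cyp4a12a, 40.8% were also present in Cyp4a12b, and of those of Cyp4a12b, 41.3% were present in Cyp4a12a. The share found in any other gene was 19.1% for Cyp4a10, 30.4% for Cyp4a32 and 13.9% for Cyp4a31. None of the 2422 stretches of Cyp4a14 occurred in another gene. How reads shared by copies were counted is not given in the sources used here, so the split between copies is uncertain. Therefore the sums Cyp4a10 + Cyp4a31 + Cyp4a32 and Cyp4a12a + Cyp4a12b are given beside the single genes. The gene model of Cyp4a32 holds 1530 transcript bases, all coding, and reads from its untranslated ends would not be counted.

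**Figure D1:**
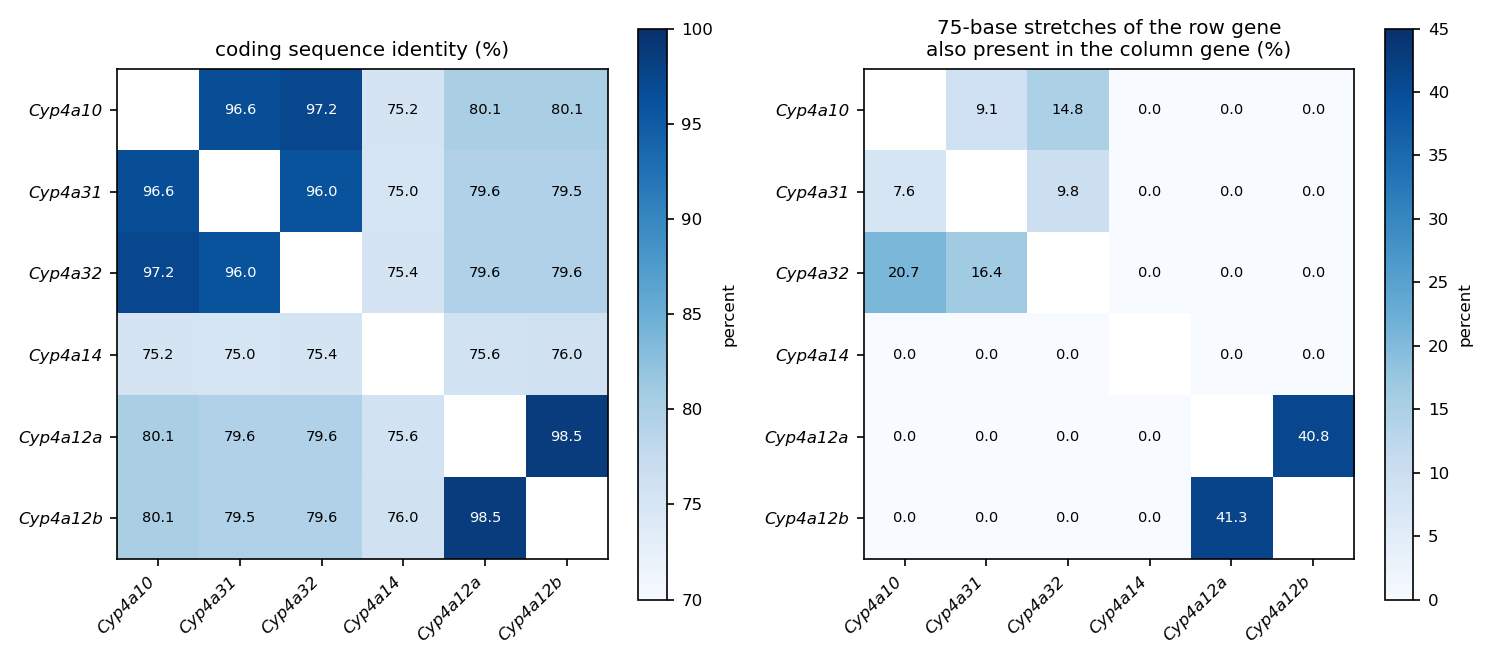
Likeness of the 6 Cyp4a genes. The left map gives the percent identity of aligned coding sequences and the right map the percent of 75-base stretches of the row gene that also occur in the column gene; Cyp4a12a and Cyp4a12b share 40.8% and 41.3% of their stretches and Cyp4a14 shares 0.0% with any of the other 5.

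Liver RNA from 56 male C57BL/6J mice, 8 in each of 7 groups, was sequenced after 8 weeks of daily subcutaneous dosing. Mice arrived at 5 to 6 weeks of age and ate chow or the AMLN diet, rich in trans-fat, fructose and cholesterol, for 36 weeks before treatment. The AMLN-fed mice (DIO-MASH, diet-induced obese mice with metabolic dysfunction-associated steatohepatitis) were kept only if a liver biopsy showed steatosis and fibrosis, so milder disease is not represented. Chow-fed and DIO-MASH mice received vehicle, and further DIO-MASH mice received zalfermin, an FGF21 analog with a prolonged action, at 0.05 mg/kg (low) or 0.2 mg/kg (high), semaglutide, a GLP-1 receptor agonist, at 3 µg/kg (low) or 120 µg/kg (high), or both. By the methods of the study the combination joined both low doses, although the design text of the series names the high ones, and it is called the low-dose combination here.

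Libraries held 5228187 to 20885786 counted reads (median 12206788), and each of Cyp4a10, Cyp4a12a and Cyp4a14 had at least 50 reads in every mouse, whereas Cyp4a12b had as few as 20 and Cyp4a31 as few as 6. One low-dose semaglutide mouse was left out of the study's own analysis without being marked in the labels. Mouse 6 of that group and mouse 1 of low-dose zalfermin stood apart from their groups in several genes named below, so values that rest on these groups are also given without them. In bulk tissue, fewer cells of a type and less RNA per cell cannot be told apart. The 7 hepatocyte markers summed to 147885 to 237285 CPM in chow, 66846 to 89212 in DIO-MASH vehicle, 87356 to 144771 in the combination and 80218 to 135519 in high-dose zalfermin. The 5 stellate cell markers summed to 744 to 1291 CPM in DIO-MASH vehicle and to 269 to 580 in the combination. The part of these shifts in the results below was not tested. The 4 kidney tubule markers, of another Cyp4a-expressing tissue, summed to at most 3.66 CPM in any mouse.

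Levels are CPM, the reads of a gene scaled to a common library size, with trimmed-mean (TMM) factors between libraries. To compare genes with each other, CPM was divided by the exon length of the gene in kilobases, without a correction for reads shared by copies. On this scale Cyp4a10 had the highest median of the family in DIO-MASH vehicle, at 128 CPM per kb, followed by Cyp4a14 at 118, Cyp4a12a at 70.4, Cyp4a12b at 34.5, Cyp4a32 at 9.02 and Cyp4a31 at 2.45. In the combination the order was another one. Cyp4a14 led with a median of 549 CPM per kb, then came Cyp4a10 at 286, Cyp4a32 at 10.1, Cyp4a12a at 7.34, Cyp4a31 at 4.26 and Cyp4a12b at 2.20. Of the 6 genes, 4 had values in the combination that did not overlap those in DIO-MASH vehicle, 2 higher and 2 lower, where 3.98% of the 14105 genes tested had non-overlapping groups. Since these levels chose the genes, nothing is read from that count. The corresponding count was 1 of 6 (Cyp4a12b, lower) in high-dose zalfermin (4.80% of all genes), and 0 of 6 in chow (16%), low-dose zalfermin (0.489%), low-dose semaglutide (0.0780%) and high-dose semaglutide (0.340%).

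**Figure D2:**
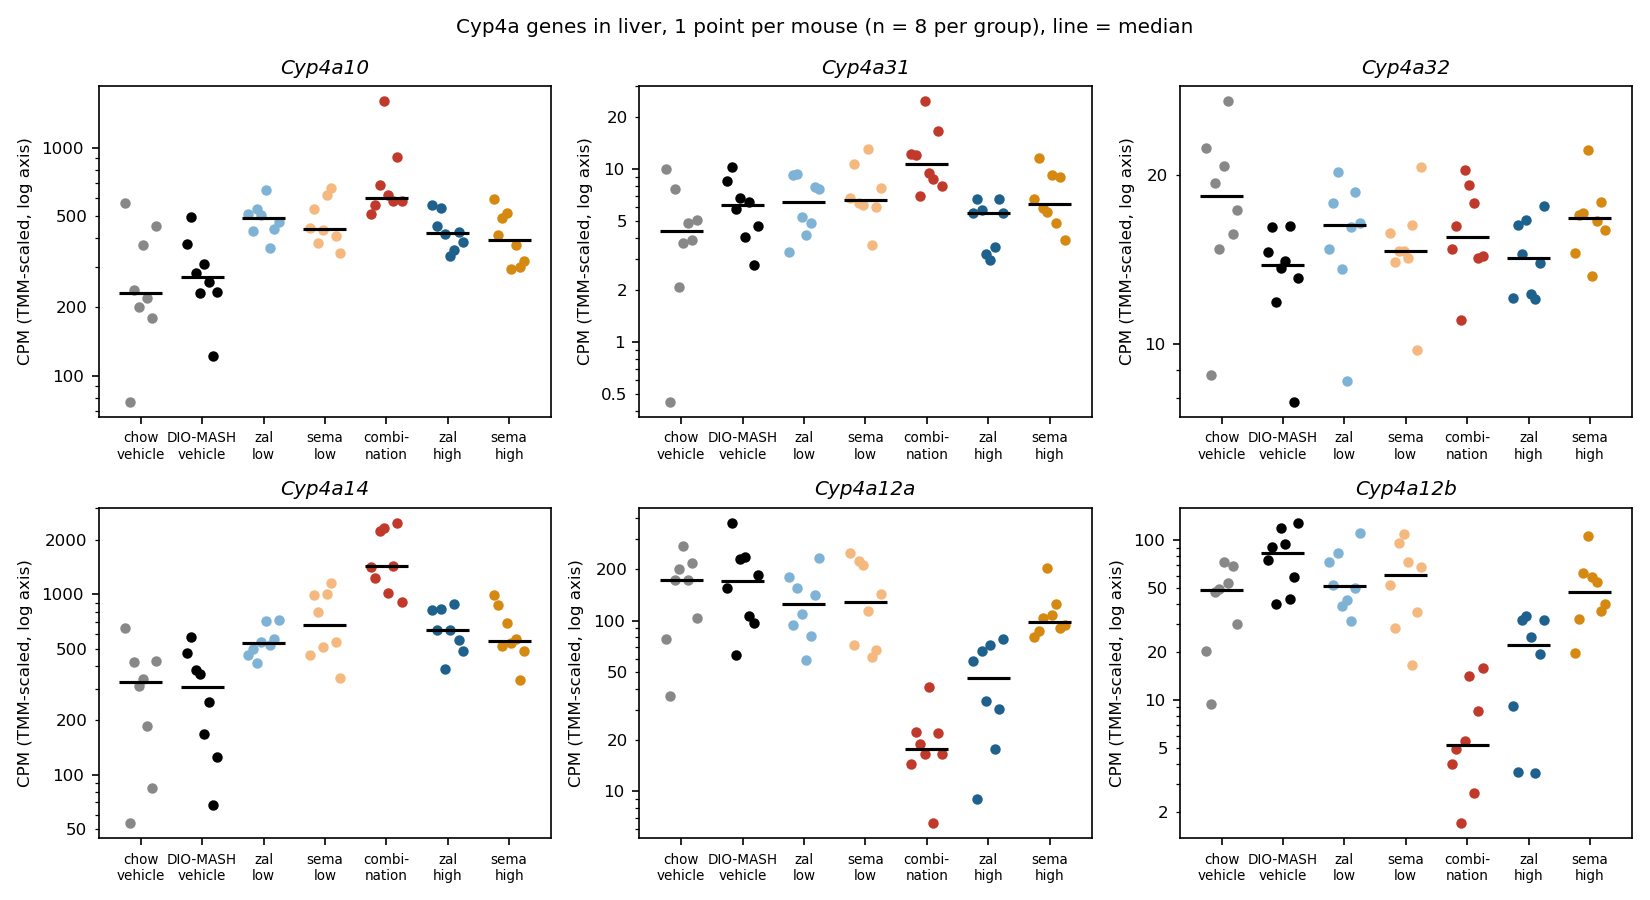
Level of each Cyp4a gene in every mouse, in CPM on a logarithmic axis whose range differs between panels, by treatment group (8 points per group, line at the median). Cyp4a14 in the combination spans 902 to 2501 CPM, above all DIO-MASH vehicle mice, and Cyp4a12a and Cyp4a12b in the combination lie below them.

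Cyp4a14, the most inducible omega-hydroxylase of the family, ranged from 67.7 CPM to 580 CPM in DIO-MASH vehicle, with a median of 307. In the combination it ranged from 902 to 2501 CPM (median 1428). All 8 combination mice were above all 8 vehicle mice, and the difference of mean log2(CPM + 1) was 2.63 ± 0.42 (SE, n = 8 and 8), or 6.2-fold. Mice 3, 4 and 7 of the combination were the highest of the series, with 2257, 2326 and 2501 CPM.

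The single treatments lay between. Cyp4a14 ranged from 343 to 1152 CPM (median 671) in low-dose semaglutide, from 384 to 887 (median 633) in high-dose zalfermin, from 334 to 988 (median 553) in high-dose semaglutide and from 414 to 717 (median 534) in low-dose zalfermin. In each of these 4 groups all 8 mice were above the vehicle median, but the groups overlapped vehicle. The differences from vehicle were 1.44 ± 0.43, 1.35 ± 0.40, 1.26 ± 0.41 and 1.14 ± 0.38 on the log2 scale, in the same order (SE, n = 8 and 8). Neighbours in this order of 4 differed by less than the spread within groups, while the combination stood 1.20 above low-dose semaglutide, against a mean SD of 0.60. Chow-fed mice had Cyp4a14 between 53.6 and 647 CPM (median 325), which overlapped DIO-MASH vehicle over nearly its whole range, with a difference of -0.05 ± 0.57. The spread in those 2 groups was wide, with an SD of 1.24 log2 units in chow and 1.05 in vehicle, against 0.28 in low-dose zalfermin.

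Cyp4a10, the other PPARα-inducible member, had from 122 to 499 CPM (median 269) in DIO-MASH vehicle and from 514 to 1604 CPM (median 604) in the combination. No combination mouse overlapped vehicle, the lowest being 514 CPM against a vehicle maximum of 499. The difference was 1.39 ± 0.28 on the log2 scale, or 2.62-fold (SE, n = 8 and 8). Mouse 4 of the combination had the highest Cyp4a10 of the series, and the group's other 7 mice lay between 514 and 913 CPM. Without mouse 4, the sum of Cyp4a10, Cyp4a31 and Cyp4a32 differed from vehicle by 1.18 instead of 1.34.

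Among the single treatments, Cyp4a10 medians were 490 CPM in low-dose zalfermin, 441 in low-dose semaglutide, 423 in high-dose zalfermin and 394 in high-dose semaglutide. Every mouse of these 4 groups was above the vehicle median, and the differences from vehicle were 0.85 ± 0.23, 0.80 ± 0.24, 0.67 ± 0.23 and 0.57 ± 0.25. The order did not follow the dose, and its neighbours differed by less than the spread within groups. In chow, Cyp4a10 ranged from 76.7 to 572 CPM (median 229), with a difference from DIO-MASH vehicle of -0.12 ± 0.38.

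Cyp4a31 and Cyp4a32, the near-identical neighbours of Cyp4a10, were far lower. Cyp4a31 ranged from 2.78 to 10.2 CPM (median 6.14) in vehicle and from 6.94 to 24.6 CPM (median 10.7) in the combination, overlapping, with a difference of 0.86 ± 0.27. In the other 5 groups its median was between 4.37 and 6.58 CPM. Cyp4a32 had medians between 13.8 and 18.3 CPM in all 7 groups, the highest in chow and the lowest in DIO-MASH vehicle, and no neighbours in its order differed by more than the mean SD. Its difference from vehicle was 0.24 ± 0.14 in the combination, 0.31 ± 0.13 in high-dose semaglutide and 0.38 ± 0.19 in chow. Cyp4a32 shares 20.7% of its 75-base stretches with Cyp4a10, but its medians did not follow those of Cyp4a10 across groups. The sum over the 3 genes followed Cyp4a10, with 132 to 525 CPM in vehicle, 541 to 1649 in the combination and a difference of 1.34 ± 0.28.

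Cyp4a12a, the male-predominant arachidonic acid hydroxylase, went the other way. It had from 62.9 to 375 CPM (median 171) in DIO-MASH vehicle, from 9.09 to 77.8 CPM (median 46) in high-dose zalfermin and from 6.51 to 41 CPM (median 17.8) in the combination. All 8 combination mice were below all 8 vehicle mice, and 5 of 8 high-dose zalfermin mice were. The difference from vehicle was -3.07 ± 0.38 in the combination, or 8.43-fold lower, and -2.05 ± 0.48 in high-dose zalfermin, or 4.13-fold lower.

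In the remaining groups Cyp4a12a overlapped vehicle. The medians were 173 CPM in chow, 129 in low-dose semaglutide, 126 in low-dose zalfermin and 98.8 in high-dose semaglutide, and the differences from vehicle were -0.23 ± 0.45, -0.34 ± 0.41, -0.38 ± 0.37 and -0.56 ± 0.33. Down to high-dose semaglutide, neighbours in the order differed by less than the mean SD. The step from there to high-dose zalfermin was 1.49 log2 units against a mean SD of 0.74.

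Cyp4a12b, its neighbour and near-identical copy, had 39.9 to 129 CPM (median 82.7) in DIO-MASH vehicle, 3.52 to 33.4 CPM (median 22) in high-dose zalfermin and 1.70 to 15.8 CPM (median 5.26) in the combination. Neither treated group overlapped vehicle. The difference was -3.48 ± 0.40 in the combination, or 11.2-fold lower, and -2.26 ± 0.50 in high-dose zalfermin, or 4.79-fold lower. In chow, Cyp4a12b was 9.41 to 73.1 CPM (median 48.5) and no mouse exceeded the vehicle median, with a difference of -0.98 ± 0.41, whereas Cyp4a12a differed by -0.23 ± 0.45. The ratio of Cyp4a12a to Cyp4a12b per kb had a median of 3.65 in chow (range 3.08 to 4.0) and 1.99 in DIO-MASH vehicle (1.42 to 4.09), overlapping. Because 40.8% of the 75-base stretches of Cyp4a12a fall in both copies, this ratio depends on how shared reads were counted.

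Their sum was free of that split, but would be too low if reads shared by both copies were left out. It ranged from 103 to 466 CPM in DIO-MASH vehicle, from 45.6 to 346 in chow, from 101 to 345 in low-dose zalfermin, from 77.8 to 321 in low-dose semaglutide, from 99.8 to 312 in high-dose semaglutide, from 12.6 to 110 in high-dose zalfermin and from 9.12 to 55 in the combination. The difference from vehicle was -3.23 ± 0.36 in the combination (9.37-fold lower) and -2.12 ± 0.47 in high-dose zalfermin (4.34-fold lower). It was -0.61 ± 0.32 in high-dose semaglutide, -0.45 ± 0.43 in chow and -0.40 in each low-dose group, with SEs of 0.34 for zalfermin and 0.39 for semaglutide.

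**Figure D3:**
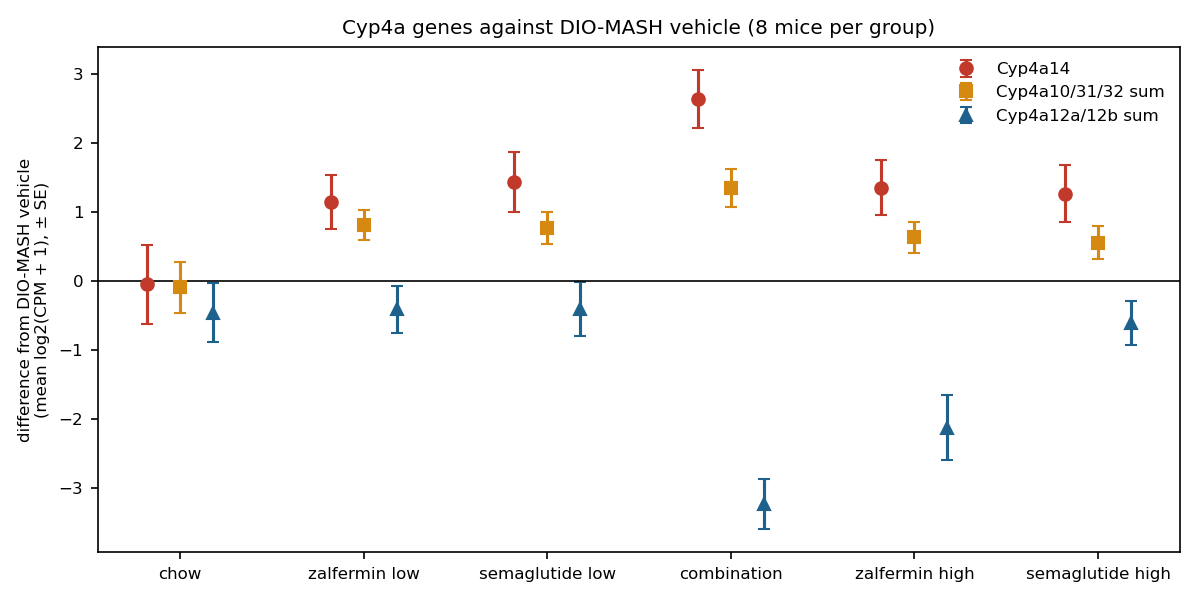
Difference of each group from DIO-MASH vehicle in mean log2(CPM + 1), with bars of ± 1 SE over the mice (8 per group), for Cyp4a14, the sum of Cyp4a10, Cyp4a31 and Cyp4a32, and the sum of Cyp4a12a and Cyp4a12b. In the combination Cyp4a14 stands at 2.63 and the Cyp4a12 sum at -3.23.

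The make-up of the family changed with these opposite differences. The shares and ratios within a group also depend on how shared reads were counted, since the Cyp4a12 copies share stretches and Cyp4a14 shares none. Per kb, Cyp4a14 made up a median of 33.1% of the summed family in DIO-MASH vehicle (16% to 44%) and 63.6% in the combination (53% to 71.7%), without overlap. The Cyp4a12 pair made up 32.4% (12.8% to 43.7%) in vehicle, 5.54% (1.10% to 10.6%) in high-dose zalfermin and 0.917% (0.444% to 3.15%) in the combination. Cyp4a10 kept a similar share, with group medians between 33.6% and 44.3%. The summed family stood at 345 CPM per kb in vehicle (154 to 667) and 830 in the combination (651 to 1687), with medians between 355 and 590 in the other 5 groups. The ratio of Cyp4a14 to the Cyp4a12 pair, per kb, had a median of 1.06 in vehicle (0.367 to 3.42), 1.12 in chow, 2.94 in low-dose zalfermin, 3.61 in low-dose semaglutide, 2.95 in high-dose semaglutide, 9.12 in high-dose zalfermin (4.10 to 46.3) and 73.5 in the combination (17.1 to 147). The ratios of the combination were above those of every vehicle, chow, low-dose and high-dose semaglutide mouse and overlapped those of high-dose zalfermin.

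**Figure D4:**
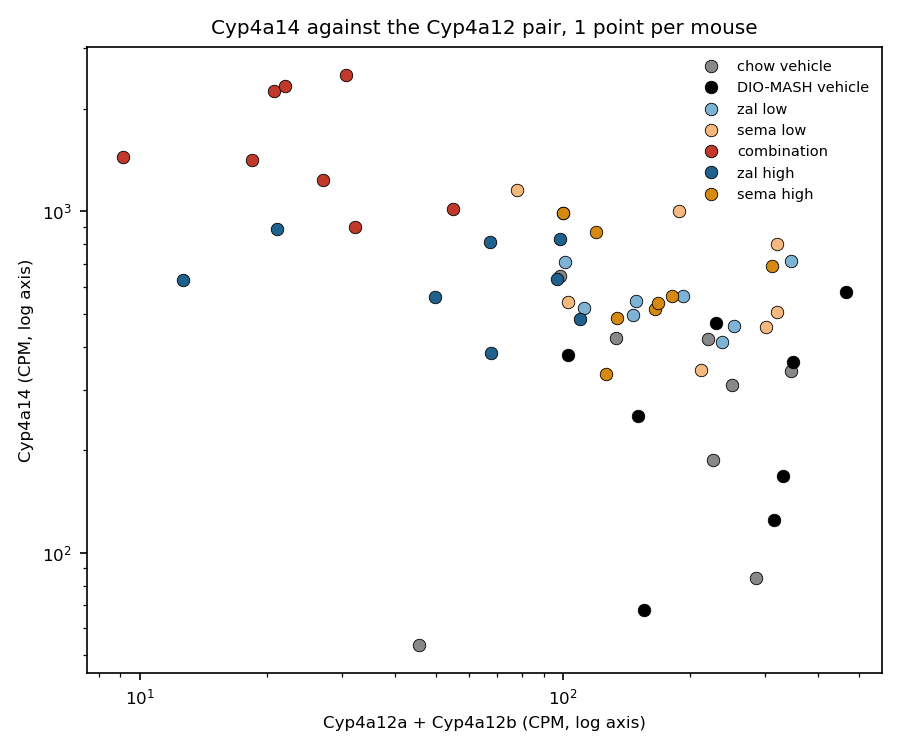
Cyp4a14 against the sum of Cyp4a12a and Cyp4a12b, both in CPM on logarithmic axes, 1 point per mouse and 1 color per treatment group. The 8 combination mice lie at the upper left (9.12 to 55 CPM of the Cyp4a12 sum, 902 to 2501 CPM of Cyp4a14).

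The study asked whether the pair of low doses did more together than alone. For Cyp4a14 the low doses differed from vehicle by 1.14 (zalfermin) and 1.44 (semaglutide), which add up to 2.58, and the combination differed by 2.63. The difference between the combination and that sum was 0.05 ± 0.49 (SE over 4 groups of 8). For the sum of Cyp4a10, Cyp4a31 and Cyp4a32 the low doses added up to 1.58 and the combination reached 1.34, a difference of -0.23 ± 0.31. For the Cyp4a12 pair the low doses added up to -0.81 and the combination reached -3.23, a difference of -2.42 ± 0.51. So on the log scale the Cyp4a12 pair was far below the added low doses, and Cyp4a14 and the Cyp4a10 group were within 1 SE of them. The study added plain differences from vehicle for its endpoints, which is another scale. In mean CPM, Cyp4a14 was 300 in vehicle, 554 in low-dose zalfermin, 724 in low-dose semaglutide and 1636 in the combination. The Cyp4a10 group had 308, 513, 502 and 786 in the same order, with an SD of 370 in the combination. On the CPM scale both stood further above vehicle in the combination than the low doses added. For the Cyp4a10 group this rested on mouse 4 of the combination, at 1649 CPM, where the next highest mouse had 943. Without mouse 4 the Cyp4a10 group stood less far above vehicle than the low doses added. Without mouse 6 of low-dose semaglutide, the log2 differences from the added low doses were 0.16 ± 0.49, -0.17 ± 0.31 and -2.59 ± 0.51. Without mouse 1 of low-dose zalfermin, they were 0.02 ± 0.49, -0.22 ± 0.31 and -2.35 ± 0.52. If the combination was in fact given at the high doses, this comparison does not hold.

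Mouse 6 of low-dose semaglutide itself had 1152 CPM of Cyp4a14 and 665 CPM of Cyp4a10, the highest of its group, and 77.8 CPM of the Cyp4a12 pair, the lowest. Without it, low-dose semaglutide differed from vehicle by 1.32 ± 0.43 for Cyp4a14, 0.70 ± 0.23 for the Cyp4a10 group and -0.24 ± 0.38 for the Cyp4a12 pair. Mouse 1 of low-dose zalfermin lay inside the range of its group for every gene except Cyp4a31, where it was the lowest at 3.33 CPM. Without it, low-dose zalfermin differed from vehicle by 1.18 ± 0.39 for Cyp4a14, 0.80 ± 0.22 for the Cyp4a10 group and -0.48 ± 0.35 for the Cyp4a12 pair. In chow, mouse 2 had the lowest value of all 6 genes, with 53.6 CPM of Cyp4a14 and 45.6 CPM of the Cyp4a12 pair. Without that mouse chow differed from vehicle by 0.26 for Cyp4a14, 0.14 for the Cyp4a10 group and -0.18 for the Cyp4a12 pair, so the differences of Cyp4a14 and the Cyp4a10 group turned positive without it.

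At the high doses, zalfermin and semaglutide were close in Cyp4a14 and Cyp4a10 and far apart in the Cyp4a12 pair. High-dose zalfermin minus high-dose semaglutide was 0.09 ± 0.23 for Cyp4a14, 0.08 ± 0.16 for the Cyp4a10 group and -1.51 ± 0.43 for the Cyp4a12 pair. All 8 high-dose zalfermin mice had less Cyp4a12a than all 8 high-dose semaglutide mice (9.09 to 77.8 CPM against 80.2 to 205 CPM). It was the 1 of 6 genes without overlap, where 0.156% of all genes tested had non-overlapping values. For Cyp4a12b 4 of the 8 zalfermin mice were below all semaglutide mice, and for the pair 7 were. Since these levels chose the genes, nothing is read from the count of genes without overlap. Between doses of zalfermin, medians of the Cyp4a12 pair were 170 CPM (low) and 67.3 CPM (high) and those of Cyp4a14 were 534 and 633. Between doses of semaglutide, medians of the pair were 200 and 150 CPM and those of Cyp4a14 were 671 and 553.

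Sample numbers in the labels fell into 4 series whose meaning is not given, with 22, 15, 16 and 3 mice, and the smallest held too few groups for a comparison. Within the 3 larger series the combination differed from vehicle in Cyp4a14 by 1.73 (4 against 2 mice), 2.08 (2 against 3) and 3.51 (2 against 2). The Cyp4a12 pair differed by -3.84, -3.27 and -2.24 in the same series, and the Cyp4a10 group by 0.76, 1.12 and 1.97. High-dose zalfermin differed from vehicle in the Cyp4a12 pair by -2.86, -2.12 and -1.04. For these comparisons the directions were the same in each series. Low-dose zalfermin differed from vehicle in Cyp4a14 by -0.19, 1.13 and 2.18 and in the Cyp4a12 pair by -0.66, -0.89 and 0.35, so neither kept its direction. Chow against vehicle changed direction too, with -2.27, -0.05 and 0.81 for the Cyp4a12 pair and -1.48, 0.57 and 1.04 for Cyp4a14.

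After subtracting the group means, log2(CPM + 1) of Cyp4a10 and Cyp4a14 correlated over the 56 mice with Pearson's r = 0.78, and Cyp4a12a and Cyp4a12b with r = 0.80. Cyp4a14 and the Cyp4a12 pair had r = -0.01, so within groups mice with more Cyp4a14 did not have less of the pair, although over all mice with group means left in r was -0.51. Cyp4a31 had r = 0.58 with Cyp4a10 and 0.54 with Cyp4a14, and Cyp4a32 had r = 0.42 and 0.24. So Cyp4a10 had a higher r with Cyp4a14, which shares no 75-base stretch with it, than with its near-identical copies. Cyp4a31 and Cyp4a32 had as few as 6 and 68 reads in a mouse, against at least 1019 for Cyp4a10 and 713 for Cyp4a14. The part of counting error in this contrast was not tested. Mice share libraries, depth and scaling across genes, and near-identical copies share reads, so these values are descriptions.

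Among 11899 other genes with a mean of at least 1 CPM, those most like the sum of Cyp4a10, Cyp4a31 and Cyp4a32 within groups were Hadha (r = 0.72), Retsat (0.71), Car3 (0.68), Decr1 (0.67) and Eci1 (0.66). Hadha, Decr1 and Eci1 act in mitochondrial fatty acid beta-oxidation, and Retsat is a retinol saturase. Most like Cyp4a14 were Retsat (r = 0.71), Ehhadh (0.63), Cyb5b (0.61), Creg1 (0.58) and Cyp2c29 (0.58). Most like the Cyp4a12 pair were Mup20 (r = 0.70), Mup21 (0.69), Cyp2d9 (0.68), Zfp979 (0.65) and C6 (0.65), and Mup20 and Cyp2d9 are male-biased liver genes. With group means left in, Cyp2c38 led for the Cyp4a10 group (r = 0.74) and for Cyp4a14 (0.72), and Cmas (0.82), C6 (0.79), Olig1 (0.74), Abcg2 (0.72) and Paqr7 (0.71) led for the Cyp4a12 pair. For the Cyp4a10 group Ehhadh (0.70), Hsd17b11 (0.70), Retsat (0.70) and Ech1 (0.65) followed, and for Cyp4a14 Retsat (0.72), Slc22a29 (0.71), Elovl2 (0.69) and Hao2 (0.68). All r are over 56 mice.

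The related gene Cyp4a30b had 0 reads in all 56 libraries, which allows up to 0.00444 CPM over all of them (3 reads, counting error only), and Cyp4a29 had 3 reads in all. Of 14 other Cyp4 genes, 9 could be tested by edgeR's quasi-likelihood test with Benjamini-Hochberg adjustment over 14105 genes. In the combination 3 were higher and 1 lower than in vehicle (10.1% and 10.9% of all genes tested). In high-dose zalfermin 4 were higher and 0 lower (8.54% and 8.68%), and in high-dose semaglutide 3 and 0 (1.43% and 1%). In chow 5 were higher and 1 lower (26.5% and 28.9%). Cyp4f14, a leukotriene and fatty acid hydroxylase, rose from 157 ± 25.3 CPM in vehicle to 266 ± 42 in the combination (SD, n = 8; log2 fold change 0.76 ± 0.16 SE, adjusted p = 6.03e-04) and to 295 ± 47.2 in high-dose zalfermin (0.90 ± 0.16, adjusted p = 5.87e-05). It did not pass the test in either low-dose group (adjusted p = 0.114 with zalfermin and 0.413 with semaglutide). In chow Cyp4f14 was also higher than in vehicle, at 380 ± 103 CPM (1.27 ± 0.17, adjusted p = 7.38e-09). Cyp4f15 rose by 0.49 ± 0.12 in low-dose zalfermin (adjusted p = 0.0308) and was the one gene of all lists to pass there, a call that was lost when any of 12 of the 16 mice compared was left out, 6 of each group, with adjusted p up to 0.144. Cyp4f18, which is expressed in white blood cells, fell by 1.02 ± 0.30 in the combination (adjusted p = 0.0124) and was lower by 2.45 ± 0.34 in chow (adjusted p = 3.53e-08).

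Over the 104 genes of the 9 lists that accompany the family in fatty acid hydroxylation, its downstream steps, its regulation and sex-biased liver expression, 96 were tested. The lists were chosen with earlier results of these data known, so their calls and p-values describe these mice and are no independent evidence. In the combination 27 were higher and 11 lower, where 10.1% of all genes tested were higher and 10.9% lower. In high-dose zalfermin 22 were higher and 10 lower (8.54% and 8.68% of all genes), in high-dose semaglutide 10 and 0 (1.43% and 1%), in chow 39 and 15 (26.5% and 28.9%) and in low-dose zalfermin 1 and 0 (0.418% and 0.0496%). In low-dose semaglutide edgeR called 0 of the 96 and 0% of all genes in either direction, with 8 of the 96 and 1222 of all 14105 genes at an unadjusted p under 0.05. DESeq2 called 0 of the 96 and 32 of all genes there. In high-dose semaglutide 9 of the 10 calls were lost when some single mouse was left out, and in the combination 11 of 38. The median log2 fold change over all 96 was 0.08 in the combination and 0.12 in high-dose zalfermin, beside -0.03 and -0.02 over all genes tested.

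Among the genes around PPARα, Ppara itself was 158 ± 49.8 CPM in vehicle and 141 ± 42.2 in the combination (adjusted p = 0.554). Ehhadh, a bifunctional enzyme of peroxisomal beta-oxidation, was 398 ± 74.7 and 506 ± 167 CPM (adjusted p = 0.0870). Of 21 other PPARα targets tested, 3 were higher and 3 lower in the combination (10.1% and 10.9% of all genes), with a median log2 fold change of 0.00. In high-dose zalfermin 0 were higher and 5 lower (8.54% and 8.68% of all genes), with a median of 0.07. Acot1, an acyl-CoA thioesterase, rose by 0.95 ± 0.32 in the combination (adjusted p = 0.0280, but 0.0613 without vehicle mouse 8 and also lost without vehicle mouse 3), and Acot2 (-0.78 ± 0.28, adjusted p = 0.0354, lost without any of 7 mice, with up to 0.189 without vehicle mouse 6) and the lipid droplet protein gene Plin2 (-0.67 ± 0.15, adjusted p = 9.97e-04) fell. Of 17 peroxisomal genes, 5 were higher and 1 lower in the combination (median 0.09), and 1 and 2 in high-dose zalfermin, beside the same shares of all genes. Acot3, a peroxisomal thioesterase, rose by 1.30 ± 0.33 in the combination (adjusted p = 0.00327), and Pex11a, of peroxisome division, fell by 0.60 ± 0.21 (adjusted p = 0.0331, lost without any of 7 mice, with up to 0.0929 without vehicle mouse 6). In chow Acot2 (-2.06 ± 0.30) and Pex11a (-0.79 ± 0.21) were also lower than in vehicle, whereas Acot1 and Acot3 did not pass the test.

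Of all genes tested, 10.1% were higher and 10.9% lower in the combination, and 8.54% and 8.68% in high-dose zalfermin. The counts of this paragraph stand beside those shares. Among the steps after omega-hydroxylation, 2 of 6 genes were higher and 2 lower in the combination. Of the lower genes, Aldh3a1 had 74 reads over all libraries. Its call was lost without any of 10 mice, with adjusted p up to 0.0941. The alcohol dehydrogenase Adh1 rose from 2532 ± 260 to 3658 ± 437 CPM (adjusted p = 9.89e-06), and the fatty aldehyde dehydrogenase Aldh3a2 fell from 1101 ± 178 to 720 ± 134 CPM (adjusted p = 2.32e-04). Por, the reductase that feeds electrons to P450 enzymes, rose by 0.61 ± 0.20 (adjusted p = 0.0260, lost without any of 4 mice, with up to 0.0767 without combination mouse 2) and was the 1 of 3 electron donors called. Of 7 other fatty acid hydroxylases and epoxygenases, 2 were higher and 0 lower, led by Cyp2e1 (0.48 ± 0.15, adjusted p = 0.0206, lost without vehicle mouse 3 or 8, with up to 0.0562), and in high-dose zalfermin 3 were higher, led by Cyp2c44 (0.90 ± 0.19, adjusted p = 4.27e-04), and 1 lower. Of 14 regulators, 5 were higher and 1 lower in the combination. Hnf4a, a master regulator of hepatocyte genes, rose by 0.80 ± 0.14 (adjusted p = 1.86e-05) and Pparg fell by 0.64 ± 0.16 (adjusted p = 0.00286). Cux2, a female-biased repressor of male-biased liver genes, was 0.485 ± 0.253 CPM in vehicle and 3.39 ± 3.43 in the combination (2.87 ± 0.75, adjusted p = 0.00455). In high-dose zalfermin its call (adjusted p = 0.0328) was lost without mouse 2, where adjusted p was 0.491, and without any of 4 vehicle mice. In chow against vehicle, Adh1 (0.40 ± 0.09), Por (0.82 ± 0.20), Cyp2e1 (1.02 ± 0.16) and Hnf4a (1.19 ± 0.14) were also higher. Aldh3a2 (-1.48 ± 0.13, 394 ± 119 CPM) and Pparg (-0.73 ± 0.16) were also lower there. Cux2 was higher in chow too (2.17 ± 0.76), a call lost without chow mouse 2.

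Of all genes tested, 10.1% were higher and 10.9% lower in the combination, 8.54% and 8.68% in high-dose zalfermin and 26.5% and 28.9% in chow. The counts of this paragraph stand beside those shares. Cyp4a12a and Cyp4a12b are male-biased, and of 10 other male-biased genes 3 were lower and 0 higher in the combination, with a median log2 fold change of -0.77. Selenbp2 was lower in all 8 combination mice (3.08 to 16.5 CPM) than in vehicle (20.2 to 73.6 CPM), with a log2 fold change of -2.18 ± 0.45 (adjusted p = 2.92e-04). Ugt2b38 (-2.26 ± 0.70, adjusted p = 0.0166) and the major urinary protein gene Mup20 (-1.07 ± 0.27, adjusted p = 0.00289) were the others. In high-dose zalfermin, where the Cyp4a12 pair was 4.34-fold lower, 0 of the 10 were lower and Cyp7b1, an oxysterol hydroxylase, was higher (0.93 ± 0.26, adjusted p = 0.00903). Of 9 female-biased genes tested, 6 were higher and 0 lower in the combination (median 2.76) and 4 and 0 in high-dose zalfermin (median 1.38). Cyp2b9 ranged from 51.8 to 351 CPM in the combination and from 0.691 to 33.5 CPM in vehicle, without overlap (4.01 ± 0.78, adjusted p = 1.42e-04). Cyp2b13 (3.20 ± 0.57, adjusted p = 3.70e-05) and Cyp2a4 (2.76 ± 0.52, adjusted p = 9.10e-05) rose with it. In chow, 7 of the 10 male-biased genes were higher than in vehicle and 1 was lower (median 1.60). The lower one was Mup20 (-1.14 ± 0.27, adjusted p = 3.06e-04), at 2209 ± 853 CPM in chow, 2322 ± 729 in the combination and 4874 ± 1283 in vehicle. Of the 9 female-biased genes, 2 were higher and 2 lower in chow (median -0.07), among the latter Cyp2a4 (-3.89 ± 0.73, adjusted p = 1.21e-05). In high-dose semaglutide 0 genes of either list passed.

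**Figure D5:**
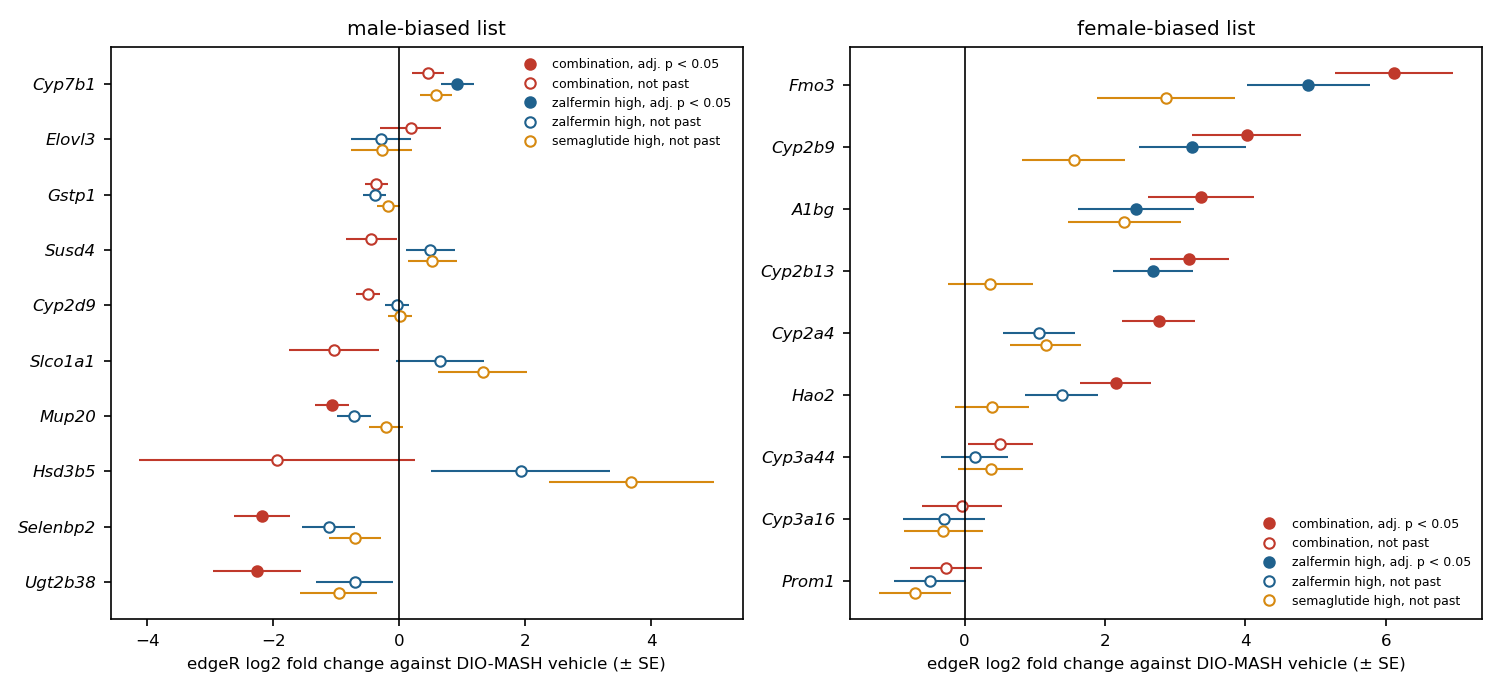
Log2 fold change against DIO-MASH vehicle by edgeR, with bars of ± 1 SE, of male-biased (left, 10 genes) and female-biased (right, 9 genes) liver genes with the combination and with either high dose alone (8 mice per group). Filled points passed adjusted p under 0.05, among them 6 female-biased genes in the combination and 4 in high-dose zalfermin.

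Between the high doses, 1 of the 96 genes passed, Cyp2b13, higher in high-dose zalfermin by 2.32 ± 0.56 (adjusted p = 0.0335), where 0.135% of all genes were higher and 0.312% lower. The call was lost without any of 8 of the 16 mice, with adjusted p up to 0.129 without mouse 1 of high-dose zalfermin. The test of whether the low doses together differed from their sum called 0 of the 96 by edgeR and 1 by DESeq2, beside 0% of all genes higher and 0.0142% lower by edgeR. At an unadjusted p under 0.05 there were 17 of the 96 and 952 of all 14105 genes.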

How the data were processed

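Liver mRNA libraries (TruSeq stranded kit for NeoPrep) were sequenced on a NextSeq 500 for 75 cycles. The authors deposited 1 table of whole-number read counts per gene. The study's methods name STAR with GRCm38, whereas the submitters' processing notes name Trim Galore 0.6.4 and Salmon 1.9.0; the counting program, its strand setting and its treatment of reads shared by paralogs are not given in the sources used here. Counts were tested with edgeR 4.0.16 (R 4.3.3; quasi-likelihood, all 7 groups of 8 mice, TMM, genes with at least 5 reads in at least 3 mice, Benjamini-Hochberg, 0.05) after checks on simulated data, with DESeq2 1.42.0 as an alternative. Depth was 5228187 to 20885786 reads per library. By the study's methods, mice were housed singly after the biopsy. Labels number each sample but do not state any earlier housing, so p-values measure the spread between these samples. The 6 genes were selected on these data, and the members and gene lists were chosen with earlier results of these data known, so members got no test: differences of mean log2(CPM + 1) with SE over mice are given. List genes were tested even so, and their calls and p-values are descriptive for the same reason. Companion genes were named by the largest changes among those passing (mean of at least 1 CPM), with Ppara, Ehhadh, Cyp4f14, Cyp4a29 and Cyp4a30b always named; 1 further gene of that rule is not reported here. Of 104 list genes 96 were tested, and 2 list symbols, marker lists included, were matched through RefSeq synonyms. Sequences and exon lengths came from GENCODE transcripts of GRCm38. Coding sequences were aligned in pairs with Biopython 1.88 for the identities, and mafft 7.526 aligned the 6 genes for the 75-base window. Other pseudocounts, scalings, filters, covariates, sample sets and each left-out mouse were tried.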

Additional observations from a re-analysis of the deposited data

Results flagged for a closer look

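In each group of 8, the mouse at either end was compared with its nearest neighbour by Dixon's ratio, which chance alone exceeds in about 1 in 20 groups. For the Cyp4a genes and their sums this held in 1 of 56 groups, where mouse 7 of DIO-MASH vehicle had 7.88 CPM of Cyp4a32 against 11.9 to 16.2 in the other 7. That mouse was also the lowest of its group for Cyp4a10, Cyp4a14 and Cyp4a31. Among the other genes named it held in 20 of 175 groups.

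Mouse 6 of low-dose semaglutide was far from its group in 5 genes, with 190 CPM of Cyp4f15, 0.704 of Cyp4f18, 442 of Plin2, 12.7 of Pparg and 1839 of Mup20. Mouse 1 of low-dose zalfermin was far from its group in 4 genes, with 412 CPM of Cyp4f14, 1.29 of Cyp4f18, 357 of Cyp7b1 and 1.09 of Cyp2a4, and mouse 8 of that group had 3483 CPM of Adh1. In the combination mouse 3 had 194 CPM of Cyp4f15 and 1.0 of Cyp4f18, mouse 6 had 50.4 of Ppara, mouse 4 had 21.5 of Cyp2b13, and mouse 5 had 1.34 of Ugt2b38. In high-dose zalfermin mouse 2 had 11.7 CPM of Cux2 and 66.6 of Cyp2a4, and mouse 6 had 8.38 of Pparg. In chow mouse 2 had 12.1 CPM of Cux2 and 2.56 of Acot1.

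The high doses differed from each other in Cyp2b13, by 2.32 on the log2 scale in edgeR's test of the difference (8 mice per group), higher with zalfermin.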

How the results depend on the processing

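The log2 differences of Cyp4a14, the Cyp4a10 group and the Cyp4a12 pair moved by less than 1 SD between replicates under a pseudocount of 0.1, DESeq2 size factors, library totals without TMM, edgeR's fit, the number series as a covariate and each left-out mouse. Sign changes occurred only in differences close to 0: of Cyp4a14 in chow (-0.05 as reported; 0.11 with number series as a covariate, 0.04 by edgeR's fit, -0.31 to 0.26 with a mouse left out), of the Cyp4a10 group in chow (0.03 by edgeR's fit, -0.26 to 0.14 with a mouse left out), and, with a mouse left out, of Cyp4a14 between the high doses (-0.03 to 0.19) and in the low-dose sum (-0.12 to 0.32). In the combination the range with a mouse left out was 2.37 to 2.81 for Cyp4a14, 1.18 to 1.47 for the Cyp4a10 group and -3.40 to -3.04 for the Cyp4a12 pair. The count of companion genes called stayed within 1.5 times for chow, the combination, high-dose zalfermin and low-dose semaglutide under every alternative. In low-dose zalfermin 1 was called, 7 by DESeq2, 3 with number series as a covariate, 2 with only the groups compared and 0 to 2 with a mouse left out. In high-dose semaglutide 10 were called, 5 with only the groups compared and 1 to 15 with a mouse left out. Between the high doses 1 was called, 3 by DESeq2, 2 with at least 10 reads in at least 8 mice, 3 with number series, 2 with only the groups compared and 0 to 4 with a mouse left out. In the low-dose sum 0 were called, and 1 by DESeq2. The cause was not tested. No paired analysis was possible because the labels give no replicate numbers that groups share. Depth limits Cyp4a31 and Cyp4a12b most, with as few as 6 and 20 reads in a mouse.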
